A study of Mus musculus with 18 samples.

Results

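The 9 hepatocyte identity genes described here were Alb, Afp, Ttr, Apoa1, Apob, Hnf4a, Foxa1, Foxa2 and Cebpa, out of 22367 genes that GENCODE annotates as protein-coding in mm9. They were chosen by name, and each was taken as its annotated gene body with 10 kb on both sides, called its window below. The windows summed to 342 kb, with a median of 29.1 kb against 35.4 kb over protein-coding genes. The study follows KRAB zinc finger proteins (KZFPs), their cofactors and the histone marks these bring about, and 6 lists of ChIP-seq peaks from its 18 samples were used. KAP1 and SETDB1 were mapped in WT Hepa 1.6 cells, a mouse hepatoma line. H3K27ac and H3K9me3 were mapped in mouse embryonic fibroblasts (MEFs) labelled C57BL/6 (C57BL/6J in the methods), either WT, that is with Kap1 flanked by loxP sites but not excised, or Kap1 KO. The Kap1 KO MEFs of the study's RNA-seq came from 1 long-cultured clone, with the unexcised WT cells grown alongside, so the KO cells here may also stand for 1 clone. Each condition had 1 library, so no difference between lists or genotypes could be tested against replicates, and the values below are descriptions.

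KAP1, also called TRIM28, is a corepressor that KZFPs bring to DNA. It recruits SETDB1, a histone methyltransferase that lays down H3K9me3, a mark of silent chromatin. H3K27ac marks active promoters and enhancers. In hepatocytes, HNF4A, FOXA1, FOXA2 and C/EBPα are transcription factors that act on the genes of secreted liver products, among them albumin, transthyretin and the apolipoproteins. Fibroblasts do not make these products, so the MEF lists show the same genes in a cell type in which they are thought to be silent. The Hepa 1.6 and MEF lists cover different proteins or marks in different cells, and no list held the same measurement in both.

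A peak is a stretch in which the authors' peak caller found more reads than in the total input, and its score, also theirs, is higher the stronger that excess was. The lists held 13366 KAP1 peaks, 2957 SETDB1 peaks, 36275 and 36436 H3K27ac peaks in WT and Kap1 KO MEFs, and 14425 and 4319 H3K9me3 peaks in the same order. Every SETDB1 entry was also a KAP1 entry, with the same position and score. The SETDB1 list thus showed which KAP1 peaks carried SETDB1, 22.1% of them, and its scores were no separate measure of SETDB1. It holds no site with SETDB1 and without KAP1, so a gene without a SETDB1 entry may still carry SETDB1. Scores began at 80 for KAP1 and SETDB1 and near 50 for the MEF marks. The H3K27ac lists held 10192 WT and 7990 KO peaks at a score of 3100 or more, while the highest score was 3233.06 in both. Scores from 3100 upward thus separate peaks little. The lists give no counts of reads, so depth is unknown, and weaker signal than the threshold can be present where no peak is listed. As a check of the MEF label, 10 of 10 fibroblast markers had an H3K27ac peak within 1 kb of a transcript start in both genotypes. Over protein-coding genes the share was 54.6% in WT and 53.3% in Kap1 KO MEFs. The Hepa 1.6 lists do not measure transcription, so the hepatocyte label of that line could not be checked, and no Kap1 level was analysed here.

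Over the 6 lists, 4 of the 9 genes had at least 1 peak in their window, namely Apob, Foxa1, Foxa2 and Cebpa. The other 5, Alb, Afp, Ttr, Apoa1 and Hnf4a, had none in any list, while 21.8% of protein-coding genes had no peak in any of the 6. By role, a peak was found at 0 of 3 plasma protein genes, at 1 of 2 apolipoprotein genes and at 3 of 4 transcription factor genes. KAP1 peaks lay at 2 of the 4 transcription factor genes, Foxa2 and Cebpa, and at 0 of the 5 genes of secreted products, where 35.9% of protein-coding genes had one. Groups of 4 and 5 genes are too small to tell apart from that share.

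**Figure D1:**
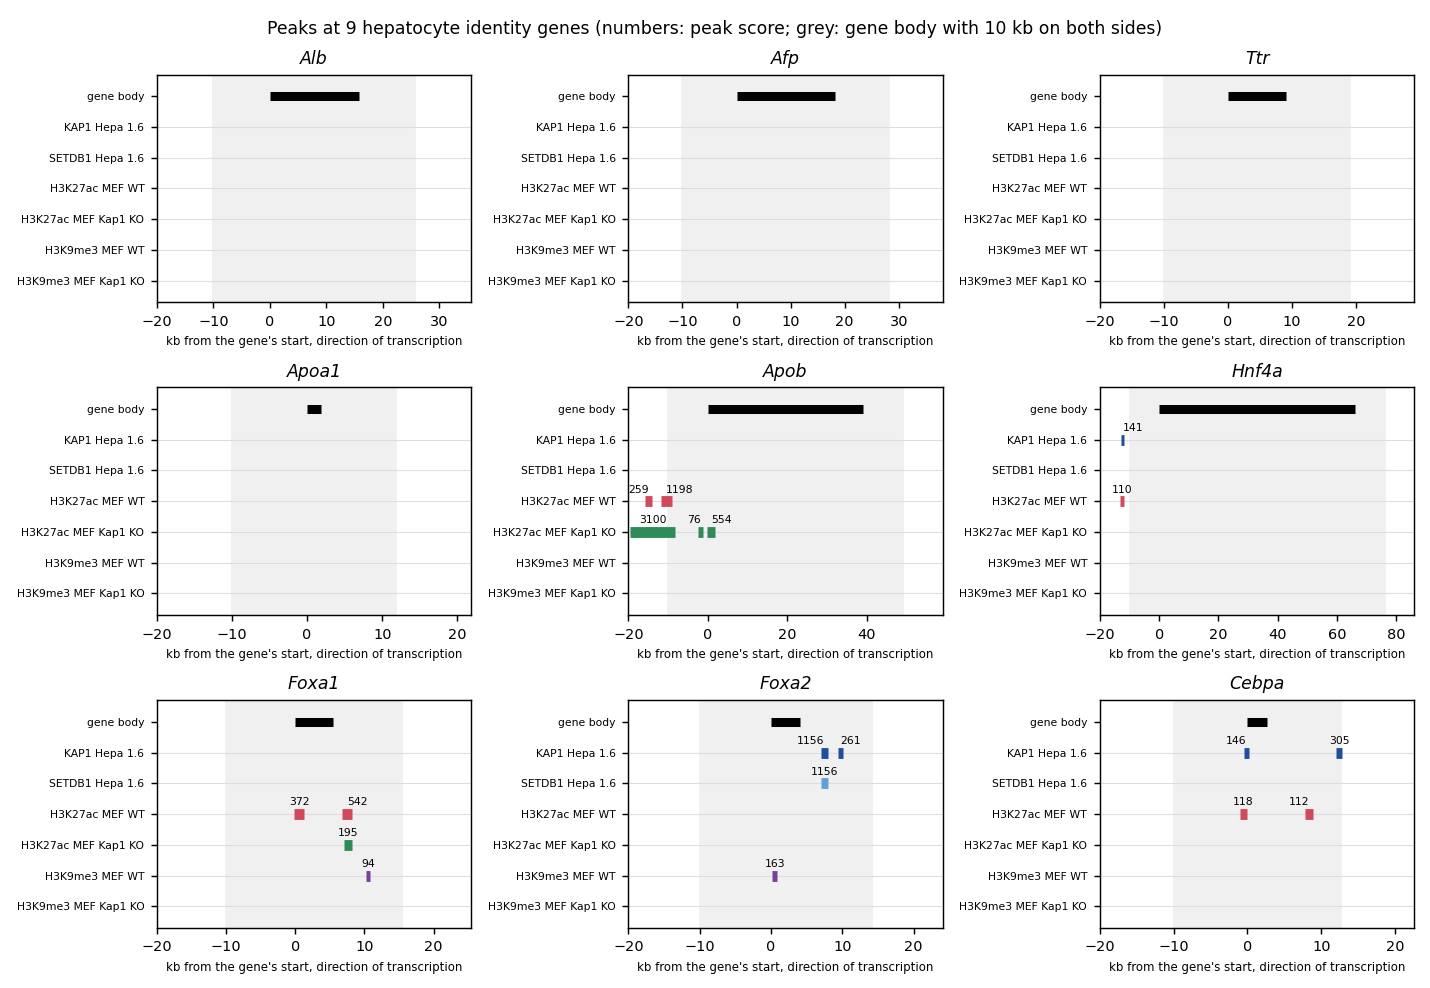
Peaks of the 6 lists along the 9 genes, by distance in kb from each gene's start in the direction of transcription. Black bars are gene bodies, grey areas the gene body with 10 kb on both sides, coloured bars are peaks and the numbers their scores. Only Apob, Foxa1, Foxa2 and Cebpa have a coloured bar in the grey area, and KAP1 bars lie there at Foxa2 and Cebpa alone.

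Alb encodes albumin, the main protein of plasma, and Afp encodes alpha-fetoprotein, its fetal relative. They are neighbours on the plus strand of chromosome 5, at chr5:90889915-90905629 and chr5:90919740-90937933 (mm9), 14110 bp apart. Their windows overlapped by 5890 bp, so the pair is close to a single observation. For Alb, the nearest peak was 88.0 kb from the gene body for KAP1, 924 kb for SETDB1, 93.0 kb for H3K27ac in WT MEFs and 92.9 kb in Kap1 KO MEFs. The nearest H3K9me3 peak was 1130 kb away in WT and 616 kb in KO MEFs. For Afp the gaps ran from 79.1 kb for H3K27ac in KO MEFs to 1160 kb for H3K9me3 in WT MEFs. Both genes thus lay in a stretch free of peaks in either cell type, including H3K9me3 peaks in the MEFs. The promoters are shown because they held the same hepatocyte factor motifs without a peak. Each is the stretch from 250 bases before the start to 29 after it, on the plus strand of mm9, at chr5:90889665-90889944 for Alb and chr5:90919490-90919769 for Afp, with motif matches in capitals:
Alb promoter: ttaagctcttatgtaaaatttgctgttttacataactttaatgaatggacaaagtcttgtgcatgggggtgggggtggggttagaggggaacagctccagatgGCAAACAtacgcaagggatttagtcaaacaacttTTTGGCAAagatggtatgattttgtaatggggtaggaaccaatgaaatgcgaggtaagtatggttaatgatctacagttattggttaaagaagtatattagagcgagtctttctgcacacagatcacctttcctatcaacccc
Afp promoter: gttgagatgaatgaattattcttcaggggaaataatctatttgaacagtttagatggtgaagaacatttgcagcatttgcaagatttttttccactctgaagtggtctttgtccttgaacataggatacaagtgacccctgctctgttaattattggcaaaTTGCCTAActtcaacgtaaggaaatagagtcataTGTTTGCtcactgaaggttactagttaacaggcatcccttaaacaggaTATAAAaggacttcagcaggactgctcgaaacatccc
Both held TGTTTGC, a form of the FOXA motif found in 4.39% of 21845 promoters of this length, and TTGCNNAA, a loose C/EBP motif found in 9.97%. The Afp promoter also held the TATA motif TATAAA, found in 13.1% of promoters. All motifs were read on both strands, and a match describes the letters and not a bound site. The promoters were poor in CpG, with 3 CpG in Alb and 2 in Afp against a median of 10.

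Ttr encodes transthyretin, the carrier of thyroxine and of retinol-binding protein in plasma. It lies on the plus strand at chr18:20823751-20832825. Its window also held Gm10269 and Gm16090, and no peak of any list. The nearest KAP1 peak was 222 kb away and the nearest SETDB1 peak 587 kb away. Among the 9 genes it had the closest H3K9me3 peak in Kap1 KO MEFs, 42.8 kb away, beside one 42.6 kb away in WT MEFs. The WT peak had a score of 161.31 and lay in an intron of Gm16090, and a KO peak with a score of 57.69 shared bases with it. A second KO peak in the same intron, with a score of 105.13, shared no base with a WT peak. Over the whole H3K9me3 lists, 89.3% of KO peaks had no partner in the WT list, and 96.8% of WT peaks had none in the KO list. H3K27ac was listed within 50 kb in Kap1 KO MEFs only, as 2 peaks with scores of 72.35 and 116.12 in an intron of B4galt6, and the nearest WT peak was 70.2 kb away.

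Apoa1 encodes apolipoprotein A-I, the main protein of high-density lipoprotein. It lies on the plus strand at chr9:46036663-46038549, in a cluster of apolipoprotein genes with Apoc3 in its window. The window held no peak, although Sik3, which reaches into it, had H3K27ac peaks in an intron further away, with scores of 647.98 in WT and 691.12 in Kap1 KO MEFs. The nearest H3K27ac peak of the WT list, 26.6 kb away with a score of 118.41, had no counterpart at the same distance in the KO list, whose nearest peak was 39.0 kb away. Of WT peaks in its score bin, 55.8% had no KO partner. Within 50 kb the marked stretches were nearly equal, 5801 bp in WT and 5940 bp in KO MEFs. KAP1 was not listed within 182 kb, SETDB1 within 399 kb, nor H3K9me3 within 88.6 kb. The promoter held 4 CpG and matched TGTTTGC at 2 places.

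Apob encodes apolipoprotein B, the structural protein of very-low-density and low-density lipoprotein. It lies on the plus strand at chr12:7984454-8023641 and was the gene with the most H3K27ac in Kap1 KO MEFs. In WT MEFs, the window held the end of 1 peak, chr12:7972568-7975341, with a score of 1198.35, which ran from -11886 to -9113 bp relative to the start. In Kap1 KO MEFs, the window held 3. The first, chr12:7964975-7976129, was 11155 bp wide with a score of 3100, wider than 99.6% of the KO list, and covered the WT peak and a second WT peak of score 259.16 outside the window. The second, chr12:7981980-7983298, had a score of 75.53 and shared no base with a WT peak. The third, chr12:7984291-7986320, had a score of 554.08, above 49.4% of its list, covered the transcript start from -163 to 1866 bp, with untranslated and coding exon sequence, and was also without a WT partner. Apob was thus listed with H3K27ac at its start in Kap1 KO MEFs alone. Over the 50 kb around the gene, 2 WT peaks covered 4536 bp and 5 KO peaks covered 20112 bp. The 2 further KO peaks, at chr12:7937340-7941227 with a score of 2957.96 and at chr12:8060860-8062579 with a score of 442.51, had no WT partner either. By score bin, KO peaks without a WT partner made up 60.1% of the bin of the peak of 75.53. They were 22.9% of the bin of the peaks of 554.08 and 442.51, and 2.39% of that of the peak of 2957.96. No KAP1 peak of Hepa 1.6 cells lay within 151 kb, nor a WT H3K9me3 peak within 107 kb. The promoter, chr12:7984204-7984483 on the plus strand of mm9, is shown because the KO peak of 554.08 covers its end and the start. Motif matches are in capitals:
Apob promoter: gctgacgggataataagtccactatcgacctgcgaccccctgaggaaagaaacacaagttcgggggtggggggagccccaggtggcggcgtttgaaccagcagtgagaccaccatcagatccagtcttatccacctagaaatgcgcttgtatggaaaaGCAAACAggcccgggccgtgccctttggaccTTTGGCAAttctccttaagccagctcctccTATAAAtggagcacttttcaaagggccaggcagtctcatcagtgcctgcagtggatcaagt
It matched TGTTTGC, TTGCNNAA and TATAAA at 1 place each, on either strand, and held 9 CpG, close to the median of 10.

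**Figure D2:**
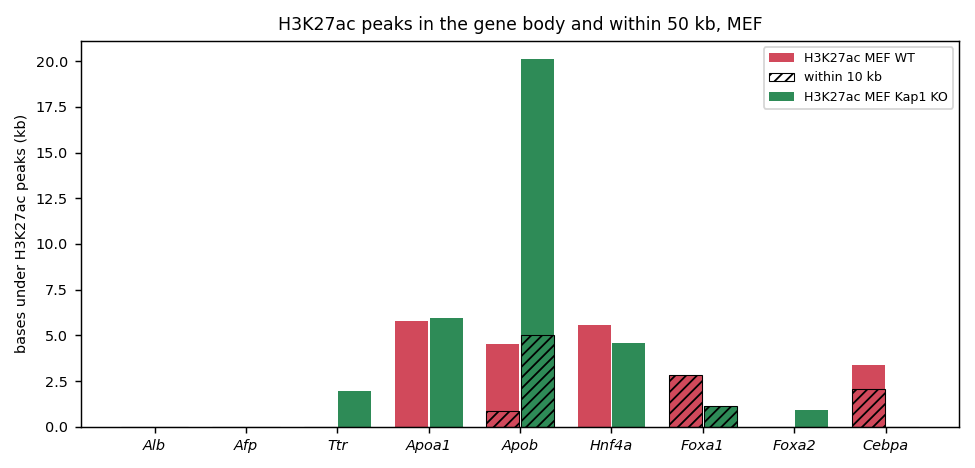
Bases under H3K27ac peaks in kb, in the gene body and the 50 kb on both sides, for WT (red) and Kap1 KO (green) MEFs, with the part within 10 kb hatched. Apob has 4536 bp in WT and 20112 bp in KO, Cebpa 3396 bp in WT and 0 in KO, and Alb and Afp have none in either. Each bar is 1 library.

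Hnf4a encodes the nuclear receptor HNF4A, which directs much of the hepatocyte programme. It lies on the plus strand at chr2:163332544-163398646, with 7 annotated starts, and was the transcription factor gene without a peak in its window. Its nearest KAP1 peak was just outside, 11.8 kb before the gene body, at chr2:163319748-163320720 with a score of 141, in an intron of R3hdml and an exon of 0610008F07Rik. An H3K27ac peak of WT MEFs, chr2:163319376-163320658 with a score of 109.62, shared 911 bp with it and had no partner in the Kap1 KO list. In its score bin, 55.8% of WT peaks had no KO partner. The KAP1 peak and this H3K27ac peak fell within a flank of 50 kb, which held 4 KAP1 peaks. The others, with scores of 581, 249 and 146, lay at or near Fitm2 and 2310001K24Rik. Those of 249 and 146 overlapped an H3K27ac peak in both genotypes. The nearest SETDB1 peak was 82.4 kb away and the nearest H3K9me3 peak 77.7 kb in WT and 1560 kb in KO MEFs. The promoter of its first start held 3 CpG and matched none of the motifs.

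Foxa1 and Foxa2 encode pioneer factors of the forkhead family, which bind closed chromatin and precede other liver factors at their targets. Foxa1 lies on the minus strand at chr12:58641618-58647108. It had no KAP1 peak within 629 kb and no SETDB1 peak within 789 kb. In WT MEFs it carried 2 H3K27ac peaks. The peak chr12:58645893-58647221, with a score of 372.07 above 40.3% of its list, covered the start from -113 to 1215 bp, and no KO peak shared a base with it. The peak chr12:58638862-58640359, with a score of 542.22 and 1258 bp past the gene end, was shared with a KO peak of score 195.09 at chr12:58638953-58640095. The marked part of the window was 2827 bp in WT and 1143 bp in KO MEFs. Of the WT peaks in the score bin of the peak at the start, 19.3% had no KO partner. A WT H3K9me3 peak, chr12:58636306-58636829 with a score of 94.01, lay between genes 4788 bp past the gene end, so both marks were listed within the same window. The Foxa1 promoter, chr12:58647079-58647358 read on the minus strand of mm9, is shown because the WT peak of 372.07 ran into it. The motif match is in capitals:
Foxa1 promoter: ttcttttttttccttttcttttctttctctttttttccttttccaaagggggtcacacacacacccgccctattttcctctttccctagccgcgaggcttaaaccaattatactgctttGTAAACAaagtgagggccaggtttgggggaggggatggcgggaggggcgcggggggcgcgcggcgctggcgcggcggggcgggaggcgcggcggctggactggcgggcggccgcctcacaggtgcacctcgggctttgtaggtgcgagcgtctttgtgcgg
It held TGTTTAC, the FOXA motif itself, on the other strand, which 2.98% of promoters hold, and 24 CpG, more than 80.2% of promoters. The ratio of observed to expected CpG in the peak over the start was 0.97, higher than in 99.9% of WT H3K27ac peaks.

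Foxa2 lies on the minus strand at chr2:147868613-147872705, with 4 annotated starts. It had the strongest KAP1 peak among the 9 genes and was the gene with a SETDB1 peak. The peak chr2:147864714-147865709 had a score of 1156, above 95.6% of KAP1 peaks and 587th from the top. The same entry stood in the SETDB1 list, above 86.6% of it by that same score, which is no separate measure of SETDB1. It lay 2903 bp past the end of Foxa2, in an intron of 9030622O22Rik, a processed transcript on the same strand, with its middle 727 bp from a start of that transcript. It could therefore belong to either gene, which was not tested. A second KAP1 peak, chr2:147862618-147863369, with a score of 261 above 75.4% of the list, lay 5243 bp past the gene end in the same intron and was absent from the SETDB1 list. Neither overlapped an H3K27ac or H3K9me3 peak of the MEFs. In WT MEFs, Foxa2 carried instead an H3K9me3 peak within the gene, chr2:147871813-147872548, with a score of 162.56 above 84.1% of its list. It lay in an intron from 157 to 892 bp after the first start and 84 bp from the nearest start. No H3K9me3 peak was listed in Kap1 KO MEFs within 959 kb. In the score bin of that peak, 96.1% of WT peaks had no KO partner, so its absence from the KO list was the common case. H3K27ac was not listed in the window in either genotype, the nearest peaks lying 74.6 kb away in WT and 28.6 kb in KO MEFs. The middle 300 bases of the KAP1 and SETDB1 peak and of the H3K9me3 peak are shown because they mark the positions of the cofactors in one cell type and of the mark in the other. They are chr2:147865062-147865361 and chr2:147872031-147872330, on the minus strand of mm9, with CpG in capitals:
Foxa2 KAP1 and SETDB1 peak: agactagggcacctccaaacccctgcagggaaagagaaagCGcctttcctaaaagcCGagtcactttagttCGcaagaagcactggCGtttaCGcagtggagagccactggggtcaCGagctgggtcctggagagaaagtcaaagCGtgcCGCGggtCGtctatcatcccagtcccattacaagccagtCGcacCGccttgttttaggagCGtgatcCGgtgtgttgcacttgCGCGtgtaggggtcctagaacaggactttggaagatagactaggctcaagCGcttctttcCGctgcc
Foxa2 H3K9me3 peak: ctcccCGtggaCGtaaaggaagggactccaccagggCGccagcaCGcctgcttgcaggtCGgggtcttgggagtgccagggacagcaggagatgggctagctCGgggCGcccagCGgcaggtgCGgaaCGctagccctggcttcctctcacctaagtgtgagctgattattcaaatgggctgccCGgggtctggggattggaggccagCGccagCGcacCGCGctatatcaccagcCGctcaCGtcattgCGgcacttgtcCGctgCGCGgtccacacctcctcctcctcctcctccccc
They held 18 and 21 CpG. Over the whole peaks the ratio of observed to expected CpG was 0.62 in the KAP1 peak, against a list median of 0.46. It was 0.72 in the H3K9me3 peak, against a median of 0.18, and higher than in 94.6% of WT H3K9me3 peaks. The KAP1 peak of 261, by contrast, had a ratio of 0.25.

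Cebpa encodes C/EBPα, a basic leucine zipper factor of liver and fat cells. It lies on the plus strand at chr7:35904312-35906945 and was the gene with a KAP1 peak over its start. That peak, chr7:35903793-35904539, reached from -519 bp across the start into the first coding sequence, with a score of 146, above 48.5% of the list and so near its middle. A second KAP1 peak, chr7:35916286-35917172, with a score of 305, 2666th from the top of the list, lay between genes 9340 bp past the gene end, at the edge of the window. Neither was a SETDB1 entry, and the nearest one was 2080 kb away. In WT MEFs, 2 H3K27ac peaks were listed. The peak chr7:35903253-35904209, with a score of 117.52, ended 103 bp before the start and shared 417 bp with the KAP1 peak of Hepa 1.6 cells. The peak chr7:35912097-35913220, with a score of 112.29, lay 5151 bp past the gene end. Neither had a partner in Kap1 KO MEFs, where the nearest H3K27ac peak was 61.8 kb away. Both scores were low, above 18.3% and 17.4% of the WT list, and 55.8% of WT peaks in that score bin had no KO partner. H3K9me3 was not listed in the window, and the nearest WT peak, 37.8 kb away, had a score of 409.85. The middle 300 bases of the KAP1 peak at the start, chr7:35904016-35904315 on the plus strand of mm9, are shown because KAP1 in Hepa 1.6 cells was listed over all of them and H3K27ac in WT MEFs over part. CpG are in capitals:
Cebpa KAP1 peak: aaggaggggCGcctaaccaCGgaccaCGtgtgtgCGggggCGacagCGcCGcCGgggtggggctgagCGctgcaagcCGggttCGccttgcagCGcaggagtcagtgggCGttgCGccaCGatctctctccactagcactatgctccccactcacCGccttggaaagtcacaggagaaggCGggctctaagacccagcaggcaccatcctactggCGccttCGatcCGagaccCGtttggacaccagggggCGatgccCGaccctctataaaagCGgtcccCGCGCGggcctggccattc
They held 27 CpG. The whole peak had an observed to expected ratio of 0.83, higher than 84.9% of KAP1 peaks, while the second KAP1 peak had 0.31.

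Set against all protein-coding genes, KAP1 peaks lay in the windows of 2 of the 9 genes and of 35.9% of protein-coding genes, and SETDB1 peaks in 1 of the 9 and in 6.85%. H3K27ac peaks lay in 3 of the 9 in WT MEFs, against 67.8%, and in 2 of the 9 in Kap1 KO MEFs, against 68.2%. H3K9me3 peaks lay in 2 of the 9 in WT MEFs, against 19.0%, and in 0 of the 9 in KO MEFs, against 3.36%. The counts for KAP1, SETDB1 and H3K9me3 lie too near these shares to be a result about the 9 genes. Those for H3K27ac lie below the shares in both genotypes. So do those of the 33 other liver genes described below, with 42.4% in WT and 45.5% in KO MEFs. The windows of Alb and Afp overlap, and the 9 windows are shorter at the median, 29.1 kb against 35.4 kb. No test was run on 9 genes chosen by name.

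Within 1 kb of a transcript start, a KAP1 peak was listed at Cebpa, 1 of 9 against 18.9% of protein-coding genes, and a SETDB1 peak at 0 of 9 against 1.81%. H3K27ac was listed there at Foxa1 and Cebpa in WT MEFs, 2 of 9 against 54.6%, and at Apob in Kap1 KO MEFs, 1 of 9 against 53.3%. H3K9me3 was listed at Foxa2 in WT MEFs, 1 of 9 against 2.65%, and at 0 of 9 in KO MEFs against 0.706%. None of the 9 had H3K27ac at a start in both genotypes. Of the 22367 protein-coding genes, 12205 had it at a start in WT MEFs, and all but 583 of these also had it in KO MEFs. The WT list alone held a start peak at Foxa1 and Cebpa, 2 of 9, while 2.61% of protein-coding genes had one in WT and not in KO MEFs. The KO list alone held one at Apob, 1 of 9, against 1.36%. Over the whole window, Cebpa had H3K27ac in WT and not in KO MEFs, 1 of 9 against 2.76%, and 0 of 9 had it in KO and not in WT MEFs, against 3.15%.

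**Figure D3:**
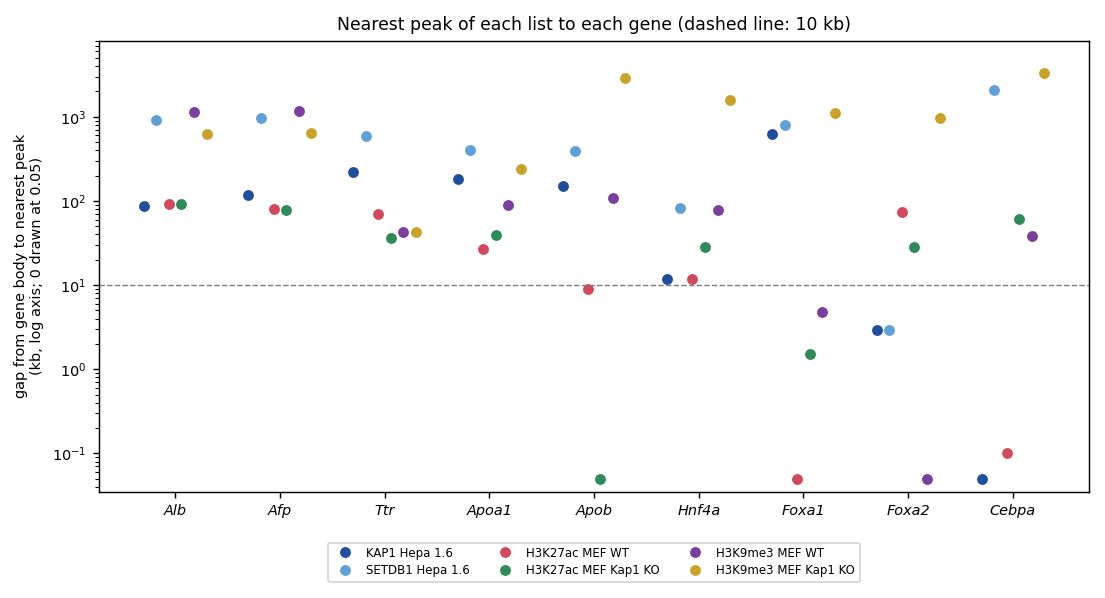
Gap in kb, on a log axis, between each gene body and the nearest peak of each list, 1 point per gene and list, with gaps of 0 drawn at the lower edge and a dashed line at 10 kb. Points lie under the line at Apob, Foxa1, Foxa2 and Cebpa, and the SETDB1 point does so at Foxa2 alone, at 2.90 kb.

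The gaps to the nearest peak need no fixed flank. The median gap of the 9 genes was 118 kb for KAP1, against 30.9 kb over protein-coding genes, and 587 kb for SETDB1, against 284 kb. For H3K27ac it was 26.6 kb in WT and 36.2 kb in Kap1 KO MEFs, against 0 in both. For H3K9me3 it was 77.7 kb in WT, against 68.1 kb, and 959 kb in KO MEFs, against 808 kb. The SETDB1 list and the KO list of H3K9me3 held the fewest peaks and had the longest gaps, over protein-coding genes too.

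Genes of the same classes gave a further comparison. Of 33 other liver genes, 9 had a KAP1 peak in the window (27.3%), 0 a SETDB1 peak, 14 an H3K27ac peak in WT MEFs (42.4%) and 15 in Kap1 KO MEFs (45.5%). H3K9me3 was listed at 3 in WT (9.09%) and at 2 in KO MEFs (6.06%). Of 11 other plasma protein genes, 1 had a KAP1 peak, Rbp4 with a score of 110, which encodes retinol-binding protein. Of 9 liver enzyme genes, 0 had one. Among 6 other apolipoprotein genes there were 3, Apom with 307, Apoh with 99 and Apoa2 with 88. Of 7 other transcription factor genes 5 had one, the strongest at Nr1h4 with 120, Nr5a2 with 97 and Nr1i3 with 88. The windows of Nr1i3 and Apoa2 overlap, and each gene had 1 KAP1 peak and 1 H3K27ac peak per genotype, with equal scores. The counts above thus appear to hold the same peaks for both genes. The share of all protein-coding genes with a KAP1 peak was 35.9%, and no difference between these classes was tested.

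At transcript starts, H3K27ac was listed at 3 of the 33 in WT MEFs and at 3 in Kap1 KO MEFs. In both genotypes these were Apoh, Foxa3 and Cebpb, named after their values were seen. Apoh, an apolipoprotein gene, had a start score of 3100 in both. Foxa3 and Cebpb are relatives of transcription factors described above. Foxa3 had start scores of 3100 in WT and 2390.38 in KO MEFs, and Cebpb had 3100 in both, in contrast to Foxa1 and Cebpa, whose start peaks were weaker and listed in WT alone. Cebpb also had a KAP1 peak at its start, with a score of 82. The 10 fibroblast markers, by contrast, had H3K27ac windows in 10 of 10 cases in both genotypes, a KAP1 peak in 5 and a SETDB1 or H3K9me3 peak in 0. The shares over protein-coding genes were 67.8% and 68.2% for H3K27ac in WT and KO MEFs, and 35.9% for KAP1. They were 6.85% for SETDB1, and 19.0% and 3.36% for H3K9me3 in WT and KO MEFs.

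**Figure D4:**
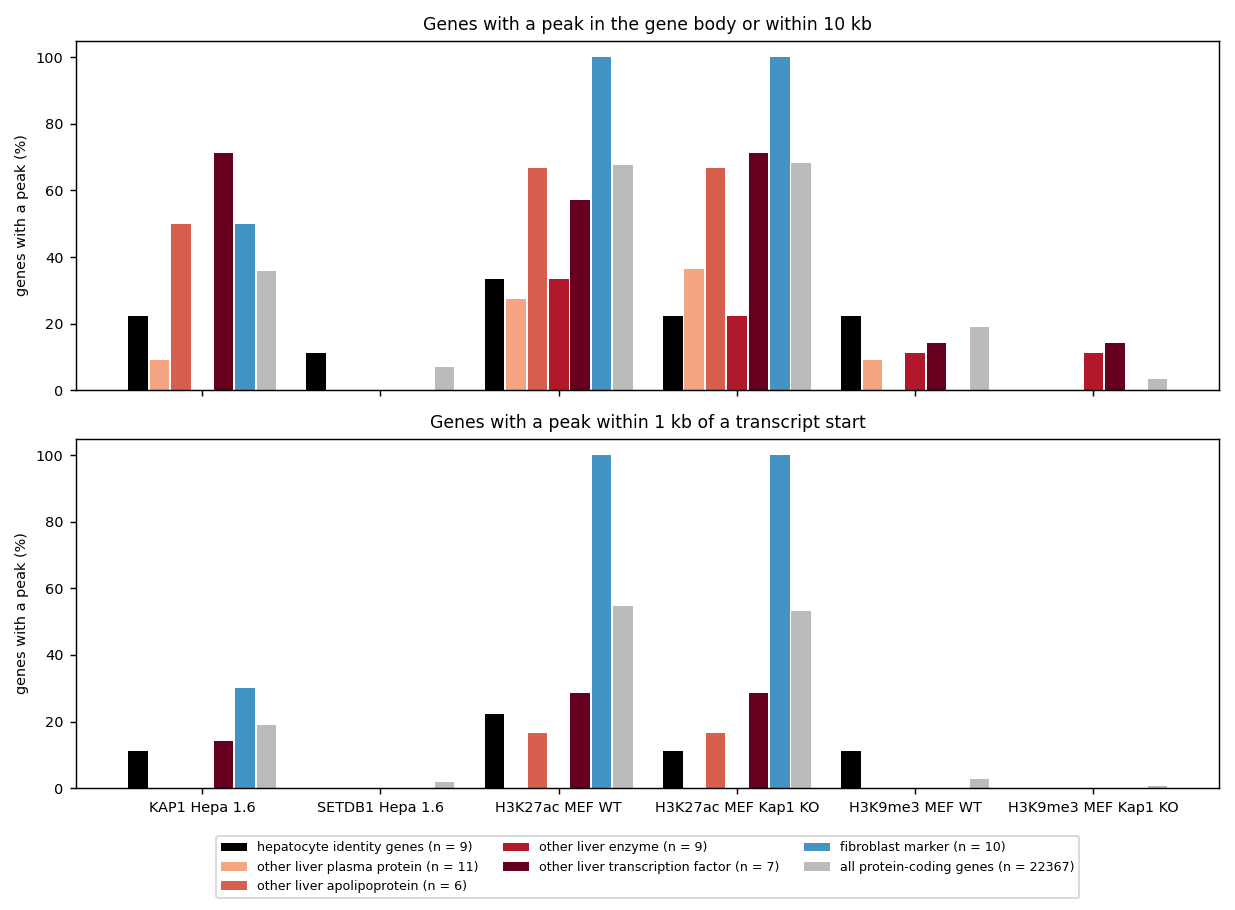
Percent of genes with a peak in the gene body or within 10 kb (top) and within 1 kb of a transcript start (bottom), for each list of peaks, with 1 bar per group of genes and no error bar since each bar counts genes of 1 library. The black bars of the 9 genes stand below the grey bars of all protein-coding genes for H3K27ac, and the blue bars of the 10 fibroblast markers reach 100 there.

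CpG content of the promoters was spread widely over the 9 genes. Each promoter is that of the gene's first annotated start only, while peaks at a start were counted at any annotated start. In the 8 promoters examined, Cebpa had 29 CpG and Foxa1 24, above the median of 10. Foxa2 had 10 and Apob 9, near it, while Apoa1 had 4, Alb and Hnf4a 3 each and Afp 2. Over all promoters, H3K27ac was listed at the start in WT MEFs for 24.9% of those with 0 to 9 CpG, 79.8% of those with 10 to 23 and 87.2% of those with 24 to 62. KAP1 was listed at 6.15%, 28.1% and 34.9% in the same order. For H3K27ac in Kap1 KO MEFs the shares were 24.3%, 77.7% and 85.3%. Alb, Afp, Apoa1 and Hnf4a, which had no peak, and Apob, whose start peak was in KO MEFs, fall in the class with the fewest CpG. Foxa2, with 4 annotated starts, falls by its first start in the class of 10 to 23 CpG and had no H3K27ac at a start in either genotype. Foxa1 and Cebpa fall in the class of 24 to 62 CpG and had H3K27ac at the start in WT but not in KO MEFs. The part of CpG content in where peaks were listed was not tested. The full C/EBP motif TTGCGCAA, contained in TTGCNNAA, and the HNF4 motif CAAAGTCCA, held by 0.201% and 0.449% of promoters, matched none of the 8.

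**Figure D5:**
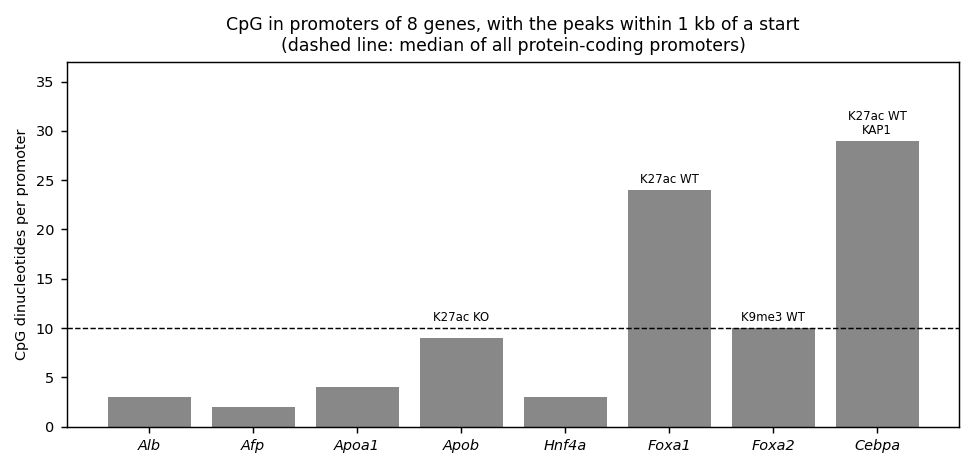
Number of CpG in the promoter (250 bases before the first annotated start to 29 after it) of 8 genes, with the lists that hold a peak within 1 kb of any annotated start written over the bars. The dashed line is the median of 10 over protein-coding promoters. Cebpa, with 29, and Foxa1, with 24, stand above it and have H3K27ac in WT but not in Kap1 KO MEFs. Foxa2, with 10, has no H3K27ac there in either genotype.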

How the data were processed

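Peak lists of 6 ChIP-seq libraries were used, with 1 library per condition. The authors mapped reads to mm9 with Bowtie 2 (2.2.1 in the submitters' processing notes) in its sensitive-local mode. MACS (1.4) called the peaks over the input, with a stated cutoff of 80. The deposited score of each peak is the authors' and served to rank peaks within a list. All deposited peaks were used. Genes, starts and sequences came from GENCODE release M1 and the NCBIM37 genome, the build of mm9. The members and all gene lists were chosen with earlier results of these data known.

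A gene had a peak when at least 1 bp of the peak lay in its body or within 10 kb, and a start peak when it lay within 1 kb of an annotated start. MEF peaks that shared no base with the other genotype counted as WT only or Kap1 KO only. The text names all 9 genes with every KAP1 and SETDB1 peak, the MEF peaks at starts and the highest of each window, and at most 3 genes per comparison list and list of peaks, by score. It also describes other MEF peaks of the windows and peaks of the lists outside them, chosen after their values were seen. Some genes of the comparison lists and a motif are not reported here. Promoter shares cover 21845 promoters. These shares, the promoter median and the CpG medians and percentages over lists of peaks leave out chromosome 18. The scripts, in Python 3.11.15, were tested on simulated data, and overlaps were checked against bedtools 2.31.1. No p-value was computed. The RNA-seq, liver, ES cell and input samples were not analysed here.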

Additional observations from a re-analysis of the deposited data

How the results depend on the processing

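Of 80 recomputed counts, 52 stayed within 1.5 times the 10 counts reported and 28 moved further. With the gene body only, KAP1 lay at 1 of the 9 genes, SETDB1 at 0, H3K27ac at 1 in WT MEFs and 1 in Kap1 KO MEFs, with 1 WT only and 1 KO only peak, and H3K9me3 at 1 in WT MEFs with 1 WT only peak. With 2 kb around starts only, KAP1 lay at 1, SETDB1 at 0, H3K27ac at 1 in KO MEFs and H3K9me3 at 1 in WT MEFs with 1 WT only peak. With 50 kb, H3K27ac lay at 5 in WT and 6 in KO MEFs with 6 WT only and 8 KO only peaks, and H3K9me3 at 4 in WT and 1 in KO MEFs with 4 WT only and 1 KO only peak. With the 50% of peaks with the highest scores, H3K27ac lay at 1 gene in both genotypes, with 0 WT only and 0 KO only peaks. With the same number of H3K9me3 peaks from both genotypes, 1 gene and 1 WT only peak were left in WT MEFs. With scores of at least 80, 1 KO only H3K27ac peak was left. A wider window or a longer list holds more peaks by construction.

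All values rest on 1 library per condition, so the WT only and KO only peaks cannot be told apart from variation between libraries or from the passage history of the clone. The H3K27ac peaks confined to 1 genotype in the windows of Apob, Foxa1 and Cebpa were all in the lower 50% of scores. Depth is unknown, and peaks under the threshold are not seen. No paired analysis was possible because each condition had 1 library, and no test was run.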
